A study of Mus musculus with 6 samples.

Results

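The JAK kinases and the SOCS inhibitors were described here by 10 genes, which are the kinase genes Jak1, Jak2, Jak3 and Tyk2 and the inhibitor genes Socs1, Socs2, Socs3, Socs5, Socs7 and Cish. Members were the non-control probes on the array whose accession belonged to 1 of these genes. That gave 13 probes for 10 genes, out of 22911 genes with a probe, and the brightest probe over the 6 arrays stood for each gene. Jak2, Jak3 and Socs2 had 2 probes each, and the other 7 genes had 1.

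The RNA came from whole lungs of male C57BL6 mice aged 10 weeks. All of the mice were starved for 16 h and then given 20 mg/kg of LPS, a component of the outer wall of Gram-negative bacteria, into the abdomen, which produces endotoxaemia. The groups were 3 mice injected with saline and 3 injected with recombinant human thrombomodulin (rhTM), the soluble form of an endothelial receptor for thrombin, in both cases at 3 and 24 h after LPS, with lungs taken at 30 h. Every mouse carried LPS and no unexposed lung was analysed here, so the comparison is of rhTM with saline within endotoxaemia and at a single time point.

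Most cytokine receptors have no kinase of their own. Binding of the cytokine brings together JAK kinases that sit on the receptor tails, and these phosphorylate the receptor and then STAT transcription factors, which move to the nucleus. Among the genes that STAT factors switch on are those of the SOCS proteins, which bind back to the receptor or the kinase and, through their SOCS box, recruit a ubiquitin ligase. SOCS messenger RNA is therefore commonly used as a readout of recent cytokine signalling, and in lung after LPS the interleukin-6 family and the interferons are among the cytokines that act through this route.

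STAT dimers are known to bind palindromic elements of the form TTCNNNGAA. The start regions of Socs3 and Cish are shown because they were the 2 members that held such a match. The sequences are those of RefSeq on GRCm38.p6, read from 250 bases before to 50 bases after each start, and 7 of the 10 members had an entry. Matches to TTCNNNGAA are in capitals. The Socs3 stretch is the 250 bases before the start (chr11:117969367-117969616, minus strand) and holds 1 match, TTCTTAGAA, which begins 154 bases before the start. The Cish stretch is 30 bases around the start (chr9:107296654-107296683, plus strand) and holds 2 matches, TTCCTGGAA at the first transcribed base and TTCTTGGAA beginning 11 bases further on.
Socs3: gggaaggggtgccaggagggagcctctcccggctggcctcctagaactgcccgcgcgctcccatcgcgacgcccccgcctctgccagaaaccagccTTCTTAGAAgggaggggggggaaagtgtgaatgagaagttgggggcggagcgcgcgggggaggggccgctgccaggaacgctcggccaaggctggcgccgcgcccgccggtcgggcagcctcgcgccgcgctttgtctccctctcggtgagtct
Cish: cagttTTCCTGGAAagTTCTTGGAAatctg

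The element reads the same on both strands, and 8.3% of 32851 promoters of this length held at least 1 match. The windows of Jak1, Jak2, Jak3, Tyk2 and Socs1 held none. A match describes the letters only.

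Lung labels were checked against defining markers before the genes were read. Sftpc, Ager, Scgb1a1 and Pecam1, which mark alveolar type 2, alveolar type 1, club and endothelial cells, were well above background on all 6 arrays. The scanner output of saline replicate 1 and rhTM replicate 2 is exchanged in the authors' series table, where 99.8% of the probes in each of these columns carry the other array's value to within 0.1%. The sources used here do not settle which is right, so results are given from the scanner output, with table values beside those of the members and the gene lists. The arrays came from 2 slides, and by the scanner output saline replicate 1 and rhTM replicate 3 lay on slide 2 and the other 4 arrays on slide 1. On saline replicate 1 the slope of the spike-in controls was 0.826, against 1.07 to 1.09 on the others.

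With rhTM, 0 of the 10 genes passed an adjusted p of 0.05 (limma with Benjamini-Hochberg adjustment over 16362 genes), and 0.0% of all genes did so in either direction. The adjusted p was 0.9999 for every member in the scanner output and 0.313 to 0.916 in the table. At an unadjusted p below 0.05 there was 1 member, Tyk2, against 1.86% of all genes (1.17% lower and 0.697% higher with rhTM), and the methods' own test gave 0 of 10 at that level. By the table there was also 1 member, Socs2, against 14.0% of all genes (6.95% higher and 7.01% lower), and the methods' own test also gave 1. The median log2 fold change of the 10 genes was 0.09, against 0.00 over all genes, and 6 of 10 were higher with rhTM, against 50.7% of all genes. By the table the median was 0.12 against -0.02, and 7 of 10 were higher, against 46.0% of all genes.

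All 10 genes were well above background on all 6 arrays. Signals below are divided by the 75th percentile of their own array. The level of a gene can be compared between arrays but not with that of another gene, because probes differ in how brightly they report. Fold changes and 95% intervals are from limma, and the exact two-sided permutation test over 3 against 3 arrays cannot give a p below 0.1. Lung RNA is a mixture, and fewer cells of a type cannot be told apart from less RNA per cell.

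**Figure D1:**
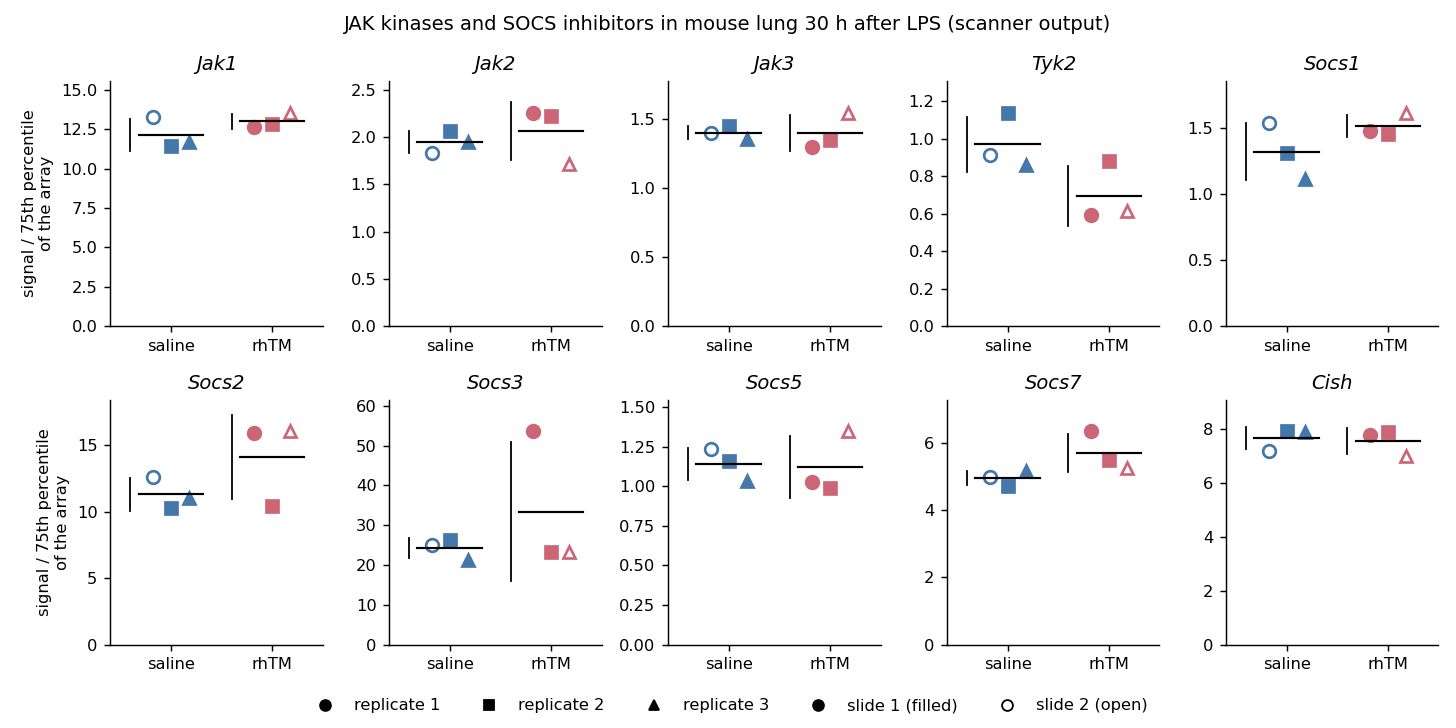
Signal of each gene divided by the 75th percentile of its array (vertical axis, from 0) in 3 saline and 3 rhTM lungs. Each symbol is 1 mouse, open symbols are the arrays of slide 2, horizontal lines are group means and the vertical line beside each group spans 1 SD either way. Only Socs7 has every rhTM array above every saline array, and Socs3 has 1 rhTM array at 53.6 with the other 5 between 21.3 and 26.3.

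Among the kinases, Tyk2 had the lowest ratio of rhTM to saline. Tyk2 serves the receptors for type I interferons, interleukin-12 and interleukin-23. Its signal was 0.916, 1.14 and 0.861 in the saline mice and 0.593, 0.880 and 0.614 in the rhTM mice. Replicates 1 and 3 of rhTM were below every saline array, and rhTM replicate 2 lay within the saline range. Means were 0.972 ± 0.147 and 0.696 ± 0.160 (SD, n = 3 each), a log2 fold change of -0.50 (95% interval -0.97 to -0.02), or 0.710-fold. The unadjusted p of limma was 0.0418 and the exact permutation p was 0.2. Within slide 1 the log2 difference was -0.45 over 4 arrays and within slide 2 it was -0.58 over 2 arrays. By the table the log2 fold change was -0.46 (95% interval -0.95 to 0.04). Leaving out saline replicate 1, saline replicate 2, rhTM replicate 1 or rhTM replicate 3 left no member with an unadjusted p below 0.05, and the log2 fold change of Tyk2 stayed between -0.68 and -0.38 over the 6 omissions.

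Jak1, the kinase shared by interferon, interleukin-6 family and common gamma chain receptors, differed little between mice. Its signal was 13.3, 11.4 and 11.7 with saline and 12.7, 12.8 and 13.5 with rhTM. The groups overlapped, and the log2 fold change was 0.10 (95% interval -0.18 to 0.38). Its SD over the 6 arrays was 0.0993 on the log2 scale, and 10.9% of genes had a smaller one.

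Jak2 transmits signals of interferon gamma, erythropoietin, growth hormone and the granulocyte-macrophage colony-stimulating factor. Its signal was 1.83, 2.07 and 1.95 with saline and 2.26, 2.22 and 1.71 with rhTM. Replicates 1 and 2 of rhTM were the highest of the 6 arrays and rhTM replicate 3 was the lowest, and the log2 fold change was 0.07 (95% interval -0.28 to 0.43). The table gave the other sign, -0.12. A dimmer second probe had 0.23 in the scanner output and 0.40 in the table, so the probes of Jak2 did not point the same way in the table.

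Jak3 partners the common gamma chain and is found mainly in lymphocytes and other blood cells. Its signal was 1.40, 1.45 and 1.36 with saline and 1.30, 1.35 and 1.54 with rhTM. The means were both 1.40, and the 95% interval of the log2 difference ran from -0.29 to 0.28. The second probe gave a log2 fold change of -0.28, with signals of 1.16, 1.38 and 0.997 with saline and 0.733, 1.08 and 1.12 with rhTM, and these groups overlapped. Of 8 T and natural killer cell markers, Cd4 had 22.6 and 19.4 on the arrays of slide 2 and 3.01 to 4.19 on the 4 arrays of slide 1. The sum of the other 7 was 5.97 and 6.19 on slide 2 and 5.57 to 7.83 on slide 1, and none of these markers was at 0. For the brightest Jak3 probe the slide 2 array of rhTM was the highest, and the slide 2 array of saline lay below saline replicate 2.

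Among the inhibitors, Socs3 varied most. SOCS3 binds the gp130 chain of the interleukin-6 receptor and is the main brake on STAT3. Its signal was 25.1, 26.3 and 21.3 with saline and 53.6, 23.4 and 23.2 with rhTM. The array of rhTM replicate 1 stood alone, and the other 2 rhTM arrays lay inside the saline range. Means were 24.2 ± 2.58 and 33.4 ± 17.5 (SD, n = 3 each), which gave 1.27-fold with a 95% interval of 0.734 to 2.20 and an exact permutation p of 0.7. Without rhTM replicate 1 the log2 fold change turned from 0.35 to -0.05. Within slide 1 it was 0.58 and within slide 2 it was -0.12. By the table it was 0.42 (adjusted p = 0.563, limma). With the slide as a block in the table it was 1.18 (adjusted p = 0.0377, limma), which sets a single rhTM array, replicate 1, against the saline group on slide 1, since slide 2 then holds no saline array. The SD of Socs3 over the 6 arrays, 0.489 on the log2 scale, exceeded that of 90.6% of genes.

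The array of rhTM replicate 1 also had the highest summed signal of neutrophil markers (7 of 8 tested), 1067 against 809.5 to 965.3 on the others, and 3 of these 7 genes were highest there, beside 29.8% of all genes. Its sum over 7 endothelial markers was 147 against 98.5 to 119, but Cldn5 made up 93.7 of it, and the other 6 summed to 53.0 against 43.4 to 52.8. Of the 7, 3 were highest on that array and 3, namely Pecam1, Tek and Tie1, were lowest. Its sum over 5 platelet markers was 27.0 against 10.0 to 14.5, of which Pf4 made up 24.7, and 3 of the 5 were highest there. The macrophage sum was the highest there too, 318 against 257 to 308, but not without Chil3. All 5 alveolar type 2 markers were lowest on that array, with a sum of 876 against 962 to 1442, and the erythroid markers without Hba-a1 summed to 43.9 against 12.7 to 23.9. None of the markers was at 0, and their part in the Socs3 value was not tested.

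Socs2, an inhibitor best known for restraining growth hormone signalling through STAT5, was higher in 2 of the 3 rhTM mice. Its signal was 12.6, 10.3 and 11.0 with saline and 15.9, 10.5 and 16.0 with rhTM. Replicates 1 and 3 of rhTM exceeded every saline array and replicate 2 did not. The log2 fold change was 0.30 (95% interval -0.17 to 0.77), and the second probe gave 0.20. In the table, where the value of rhTM replicate 2 belongs to saline replicate 1 and the reverse, the rhTM arrays were all above the saline arrays. There the log2 fold change was 0.48 (95% interval 0.18 to 0.78), with an unadjusted limma p of 0.0073 and an adjusted p of 0.313. By the table the summed neutrophil markers were also wholly higher with rhTM, at 960 to 1067 against 810 to 908, with 6 of 7 genes higher and 2 of 7 without overlap gene by gene, beside 21.7% of all genes. The sums of the club and ciliated cell and of the erythroid markers were wholly higher too, but overlapped without their brightest genes, Scgb1a1 and Hba-a1. Of 7 endothelial markers 2, Cldn5 and Cdh5, were higher in the table, and 3 (Pecam1, Tek and Emcn) were below saline on every rhTM array, beside 12.0% of all genes, with a list median of -0.32. The part of these markers in the Socs2 value was not tested. In the scanner output the sums of all 11 marker lists overlapped between groups.

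Socs1, which blocks JAK kinases directly and limits interferon gamma signalling, had signals of 1.54, 1.31 and 1.11 with saline and 1.48, 1.46 and 1.62 with rhTM. The groups overlapped, with 2 saline mice below all rhTM mice and saline replicate 1 among them. The means were 1.32 ± 0.216 and 1.52 ± 0.0865 (SD, n = 3 each). The log2 fold change was 0.21 (95% interval -0.15 to 0.57). By the table it was 0.26, without overlap, the rhTM mice being higher.

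Socs7 was the only member whose groups did not overlap by the scanner output. Its signal was 4.98, 4.72 and 5.14 with saline and 6.33, 5.50 and 5.25 with rhTM, so the lowest rhTM array exceeded the highest saline array by a small margin. The log2 fold change was 0.20 (95% interval -0.10 to 0.49), with an exact permutation p of 0.1. Genes with every rhTM array above every saline array made up 2.95% of all genes, those with every rhTM array below 2.57% and both together 5.52%, beside 1 of the 10 members. By the table the groups of Socs7 overlapped and the log2 fold change was 0.10, or 0.0011 without rhTM replicate 1, while the groups of Socs1 and Socs2 (both higher with rhTM) and of Cish (lower) did not overlap. Those 3 of 10 stand beside 21.7% of all genes, of which 9.68% were above and 12.0% below.

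In the scanner output Socs5 and Cish showed the smallest differences of the inhibitors, while in the table Socs7 did. Socs5, an inhibitor linked to interleukin-4 and epidermal growth factor receptors, had signals of 1.23, 1.16 and 1.03 with saline and 1.02, 0.991 and 1.34 with rhTM. The groups overlapped, the log2 fold change was -0.04 (95% interval -0.42 to 0.34), and the table gave 0.17. Cish, a STAT5 target that dampens interleukin-2 family and growth hormone signals, had signals of 7.16, 7.89 and 7.88 with saline and 7.75, 7.89 and 6.97 with rhTM. Its log2 fold change was -0.02 (95% interval -0.30 to 0.26), and its SD over the 6 arrays, 0.0802, was the smallest of the 10, with 5.17% of genes below it. By the table Cish was lower on every rhTM array, by a log2 fold change of -0.11.

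**Figure D2:**
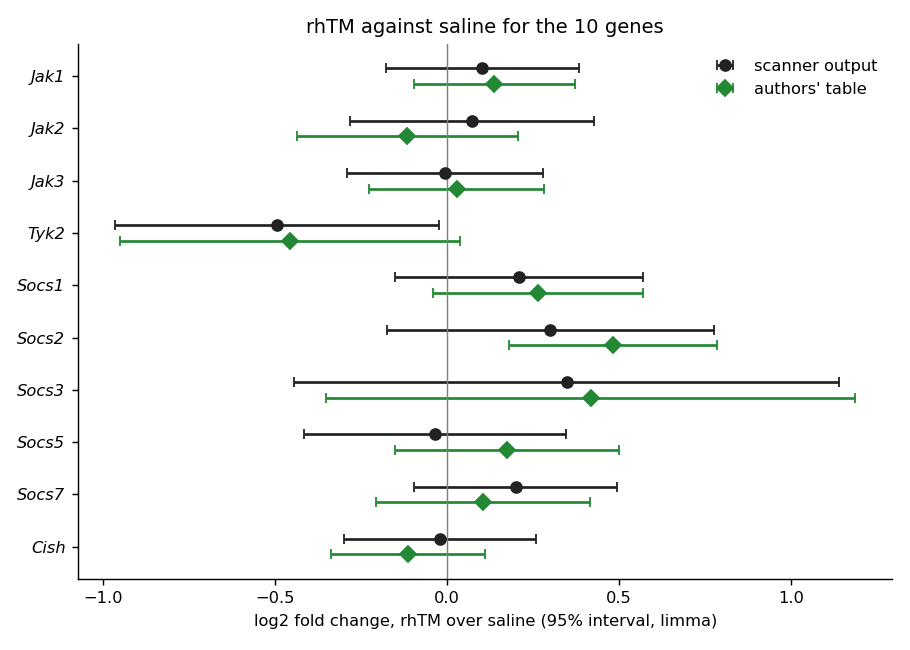
Log2 fold change of rhTM over saline for each gene (horizontal axis) with its 95% interval from limma, by the scanner output (black circles) and by the authors' table (green diamonds). The interval excludes 0 for Tyk2 by the scanner output and for Socs2 by the table, and the sign differs between sources for Jak2, Jak3 and Socs5.

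The intervals set bounds on the size of a difference. For 7 of the 10 genes the 95% interval, taken gene by gene, lay within 1.5-fold in both directions in the scanner output, and the same held for 7 of 10 in the table. The exceptions in both sources were Tyk2, Socs2 and Socs3.

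The ligands and receptors upstream of these genes were read from lists of the pathway. Of 18 ligands tested, 11 were higher with rhTM and 0 passed the adjusted threshold, with a median log2 fold change of 0.06. The other 8 with a probe were too dim to test. Il6, the cytokine that drives STAT3 through gp130, had signals of 2.25, 1.37 and 0.917 with saline and 4.48, 1.02 and 1.58 with rhTM, and the highest value was again on rhTM replicate 1. Its log2 fold change was 0.45, and 1.21 in the table (adjusted p = 0.313, limma). Csf3, which encodes the granulocyte colony-stimulating factor, had signals of 0.437, 0.345 and 0.398 with saline and 1.26, 0.324 and 0.721 with rhTM. Its groups overlapped, with a log2 fold change of 0.77, whereas in the table they did not and the value was 1.05 (unadjusted p = 0.025, adjusted p = 0.321, limma). Tslp, an epithelial cytokine, was the only ligand without overlap in the scanner output, beside 5.52% of all genes, at 0.283 to 0.747 against 0.229 to 0.244. The value of 0.747 was that of rhTM replicate 1, and the other rhTM arrays had 0.283 and 0.287. In the table its groups overlapped, at 0.244 to 0.747 against 0.229 to 0.283. Osm, Lif, Ifng and Il21 had log2 fold changes of 0.16, -0.15, 0.17 and -0.48, and their groups overlapped, and the table gave 0.02, 0.64, 0.46 and -0.45. In the table's values 11 of 18 ligands were higher too, with a median of 0.10. There 2 did not overlap, Il6 and Csf3, both above saline, beside 9.68% of all genes. An unadjusted p below 0.05 was found for 5, beside 14.0%.

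Of 32 receptor chains tested, 15 were higher and 0 were called, with a median of -0.00 and 0 without overlap. In the table's values 14 were higher, with a median of -0.04, and 10 did not overlap, 4 above and 6 below saline, beside 21.7% of all genes. Il6st, which encodes gp130, had signals of 9.47, 11.3 and 8.79 with saline and 6.19, 9.34 and 8.33 with rhTM, the lowest on rhTM replicate 1. Osmr, the partner of gp130 for oncostatin M, ran the other way, with 19.5 on rhTM replicate 1 and 9.61 to 12.3 elsewhere. Il2rg, the common gamma chain that carries Jak3, had a log2 fold change of -0.23, and Il6ra and Ifngr1 had values of -0.07 and 0.06. In the table these 3 had -0.48, 0.04 and -0.04. There Osmr was above saline on every rhTM array and Il2rg was below, both among the 10 without overlap. The groups of Il6st overlapped in the table.

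Of the 7 STAT factors, 4 were higher, with a median of 0.06, and in the table's values 6 of 7 were, with a median of 0.11, and 0 were called in either. Stat3 had signals of 11.4, 16.6 and 16.4 with saline and 30.4, 16.0 and 14.3 with rhTM, so it too was highest on rhTM replicate 1. Stat5a had 6.61, 6.67 and 6.47 with saline and 8.75, 6.39 and 8.55 with rhTM, with replicates 1 and 3 of rhTM above the rest, as for Socs2. Stat5b and Stat6 had log2 fold changes of -0.05 and -0.19, and in the table Stat3, Stat5a, Stat5b and Stat6 had 0.06, 0.28, 0.12 and -0.19.

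The SOCS box acts through a ubiquitin ligase built from elongins B and C, a cullin and a RING protein. All 6 genes of this ligase list had higher means with rhTM by the scanner output, with log2 fold changes from 0.05 to 0.21 and a median of 0.13, and 0 were called. By the table it was 3 of 6 that were higher, and the median was -0.04. Cul5, the cullin used by most SOCS proteins, had signals of 2.12, 1.99 and 2.16 with saline and 2.45, 2.41 and 2.39 with rhTM, without overlap by the scanner output. Cul2 did not overlap either, 2 of the 6 beside 5.52% of all genes, and both did in the table, where Cul5 had a log2 fold change of 0.09. All 6 were highest on rhTM replicate 1, and 29.8% of all genes were highest there.

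Of 12 other brakes on the pathway, which are phosphatases, PIAS proteins, adaptors and further inhibitors, 3 were higher, with a median of -0.02, and in the table's values 4 were, with a median of -0.12, and 0 were called in either. Ptpn2, a phosphatase of JAK1, JAK3 and nuclear STATs, had signals of 4.55, 4.56 and 4.60 with saline and 8.53, 4.57 and 5.20 with rhTM. Pias4, a SUMO ligase that restrains STAT factors, was lower in all 3 rhTM mice than in any saline mouse in the scanner output, with a log2 fold change of -0.26, while the groups overlapped in the table. In the scanner output Sh2b3 was also below saline on every rhTM array, making 2 of 12 beside 2.57% of all genes, and Ptpn6 and Usp18 had values of -0.17 and 0.04. Of 5 adaptors of JAK kinases, 3 were higher, with a median of 0.00, and the values ran from -0.14 for Sh2b1 to 0.13 for Sh2b2. In the table's values 2 of the 5 were higher, the median was -0.06, and the values ran from -0.20 for Sh2b1, without overlap, to 0.52 for Stam2, which also did not overlap, beside 21.7% of all genes.

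Targets of the STAT factors were read in 2 lists. Of 12 STAT3 targets, 11 were higher in the scanner output and 9 in the table, with medians of 0.13 and 0.27, and 0 were called in either. In the scanner output 0 were without overlap, and in the table it was 4, all above saline, beside 9.68% of all genes, with 3 at an unadjusted p below 0.05, beside 14.0%. The gene below saline by the scanner output was Ccnd1, which encodes cyclin D1, at -0.41. Pim1, a kinase gene induced by STAT3 and STAT5, had signals of 12.2, 11.3 and 11.1 with saline and 22.3, 11.0 and 11.7 with rhTM. Hp, which encodes haptoglobin, had 229, 206 and 223 with saline and 326, 227 and 262 with rhTM. Of the 12 targets, 8 were highest on rhTM replicate 1, the array on which Socs3 stood alone, beside 29.8% of all genes.

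Of 8 STAT5 targets, 5 were higher, with a median of 0.08, and in the table's values 7 were, with a median of 0.10, and 0 were called in either. Igf1, the growth factor gene that growth hormone induces through STAT5, had signals of 0.181, 0.192 and 0.187 with saline and 0.220, 0.265 and 0.442 with rhTM. Its log2 fold change was 0.66 (95% interval 0.06 to 1.27), with an unadjusted limma p of 0.036 and an adjusted p of 0.9999, and by the table it was 0.30. Pim2 had -0.25, and 0.04 in the table. Over all 110 pathway genes tested, 63 were higher (57.3%, against 50.7% of all genes), 1 had an unadjusted p below 0.05 and 0 were called. By the table there were 62 higher (56.4%, against 46.0% of all genes), 16 had an unadjusted p below 0.05, beside 14.0% of all genes, and 0 were called.

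**Figure D3:**
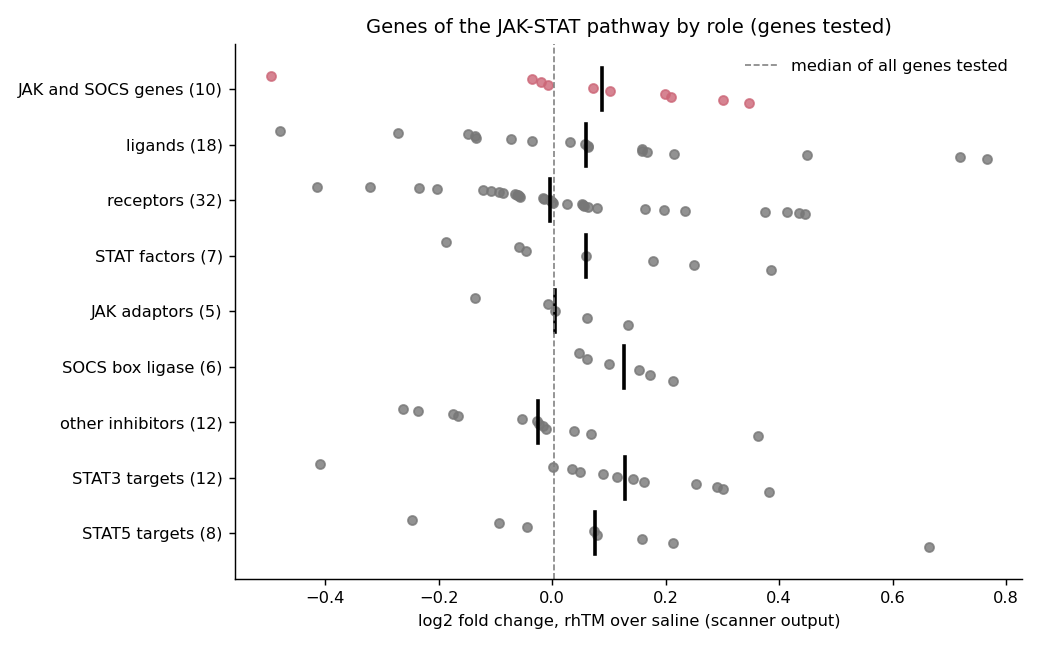
Log2 fold change of rhTM over saline by the scanner output (horizontal axis) for the JAK and SOCS genes (red) and the genes of 8 pathway lists (grey), with the number tested in brackets. Each point is a gene, the black bar is the median of its list and the dashed line is the median of all genes, and the medians lie between -0.02 and 0.13.

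**Figure D4:**
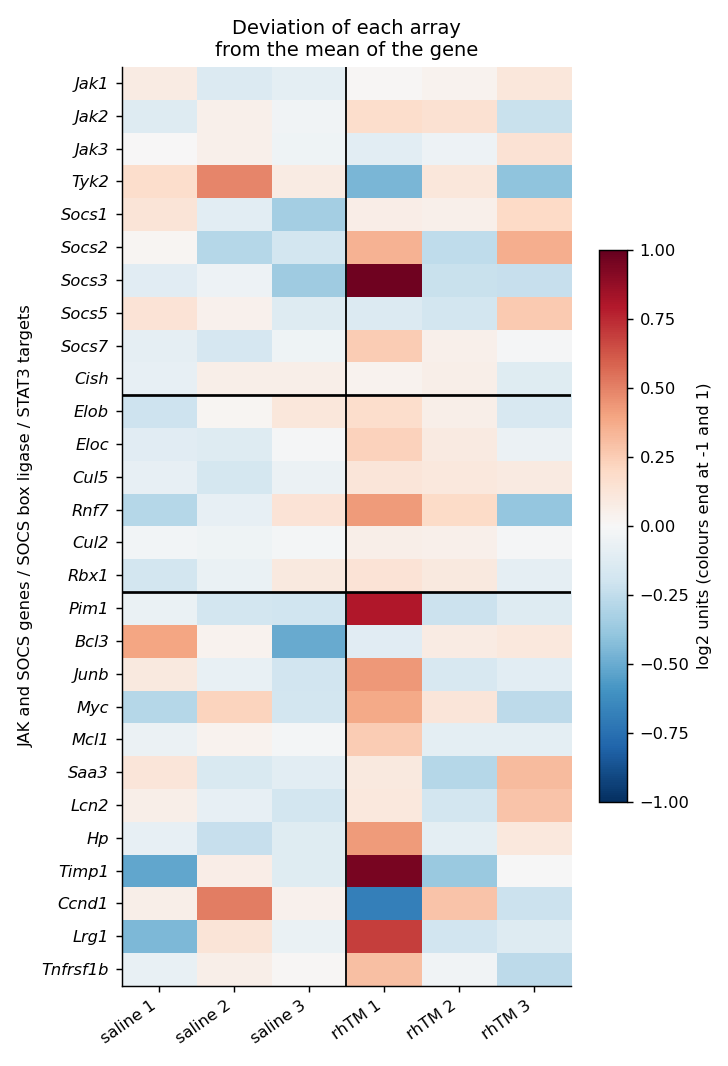
Deviation of each array from the mean of the gene on the log2 scale (colours end at -1 and 1) for the 10 members, the SOCS box ligase genes and the STAT3 targets. The column of rhTM replicate 1 holds the highest value for Socs3, for all 6 ligase genes and for 8 of the 12 STAT3 targets, and the lowest for Ccnd1.

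Pairs of a member with a functional partner, 6 in all, were compared across the 6 mice by exact permutation tests, adjusted over the 6 pairs, and 0 passed. Socs3 and Il6 had a Pearson r of 0.889 (exact permutation p = 0.050, adjusted p = 0.25) and a Spearman rho of 0.714 (exact permutation p = 0.136, adjusted p = 0.408). Without the 2 mice farthest from the median of Il6, r was 0.322. Socs3 and Pim1 had r of 0.979 (exact permutation p = 0.0833, adjusted p = 0.25) and rho of 0.600 (exact permutation p = 0.242, adjusted p = 0.483). Without the 2 mice farthest from the median of Pim1, r was 0.0927. With this scaling rhTM replicate 1 was among the mice left out in both pairs. Without it alone, r was 0.626 for Socs3 and Il6 and 0.367 for Socs3 and Pim1. With no scaling between arrays, Socs3 and Pim1 had r of 0.984 (exact permutation p = 0.0111, adjusted p = 0.0583). It was 0.763 without the 2 mice farthest from the median of Pim1. Socs3 and Il6 then had r of 0.823, and of -0.307 without the 2 mice farthest from the median of Il6.

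Cish and Socs2 had r of -0.635 (exact permutation p = 0.136, adjusted p = 0.272) and rho of -0.943 (exact permutation p = 0.0167, adjusted p = 0.1). Without the 2 mice farthest from the median of Socs2, r was -0.949. With no scaling between arrays r was -0.444 and rho was -0.314. Socs1 with Irf1, Jak3 with Il2rg and Jak2 with Il6st had r of 0.273, 0.107 and -0.239, with exact permutation p of 0.628, 0.794 and 0.694. Their rho was 0.200, 0.200 and -0.143, with exact permutation p of 0.714, 0.714 and 0.803. Without the 2 mice farthest from the median of the partner (Irf1, Il2rg or Il6st), r was 0.488, -0.816 and 0.579. With no scaling between arrays Jak3 with Il2rg had r of 0.921 (exact permutation p = 0.0194, adjusted p = 0.0583) and Jak2 with Il6st turned to 0.390 (exact permutation p = 0.436). The slides held 4 and 2 arrays, so no correlation was computed within a slide.

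The genes whose pattern over the 6 arrays was most like that of the 2 most variable members were named as a description. For Socs3 these were Olfr544, Col20a1 and Midn, with Pearson r of 0.995, 0.994 and 0.993, and all 3 were highest on rhTM replicate 1. For Tyk2 they were Tcta, Ino80e and Rnf39, with r of 0.994, 0.993 and 0.991, and all 3 were lower on replicates 1 and 3 of rhTM than on every other array. These genes were picked from 16362 on 6 shared arrays.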

How the data were processed

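Each lung was hybridised to its own 1-colour Agilent SurePrint G3 array. The authors deposited scanner output (Feature Extraction 10.7.3.1 per the file headers, 9.1 per the labels' processing notes) with processed signal intensity on a linear scale after background subtraction, and a series table of intensity values. These equal the signals to within 0.1% for 99.8% to 99.9% of the probes of each array, with saline replicate 1 and rhTM replicate 2 exchanged. Control spots were dropped, spots of a probe averaged, and 398 of 56605 probes with only outlier spots on some array left out. Log2 signals were scaled by subtracting each array's 75th percentile (675 to 850). Accessions were matched to a RefSeq gene table of GRCm38.p6, and 32994 probes matched. The array was annotated on another build, so no probe coordinates are given. Probes were kept if well above background in the whole of either group, and the brightest probe stood for a gene, which left 16362 genes. Groups were compared with limma 3.58.1 in R 4.3.3 (threshold 0.05 after Benjamini-Hochberg adjustment over all genes) and by exact permutation tests with scipy 1.17.1. The fit was tested on simulated data.

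Named genes were the members, the partners of the 6 pairs, a fixed set of pathway genes, the gene with the smallest unadjusted p per pathway list and direction, the 3 genes most alike to each of the 2 most variable members, and 4 lung markers. Stam2, Cul2, Sh2b3 and the other single marker genes were named after their values were seen. The members and lists were chosen with earlier results of these data known. Alternatives were other scalings, normexp with offset 50 on the spot and background medians, the series table, filters on dim probes, the mean over probes, slide or replicate number as a block, the methods' t-test and leaving out arrays. The t-test on the series table and marker sums without the brightest gene were added after seeing the data. Results for a named pathway gene and a list of its targets are not reported here. No p adjusted over the members alone is given. The number of arrays limits the precision.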

Additional observations from a re-analysis of the deposited data

How the results depend on the processing

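The groups held 3 arrays each, and the group of 2 of the 6 arrays is not settled by the sources. By the scanner output 0 members, 0 pathway genes and 0 genes in all were called under every alternative run. By the series table the counts were also 0, with 2 exceptions. With the slide as a block, 1 member (Socs3, log2 fold change 1.18, adjusted p = 0.0377, limma), 8 pathway genes and 432 genes were called, and slide 2 then holds no saline array, so this compares rhTM replicate 1 alone with saline on slide 1. Leaving out single arrays gave 0 to 566 genes and 0 to 4 pathway genes, the highest counts without rhTM replicate 1, and 0 members.

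The sign turned by the series table, with limma and with the t-test, for Jak2 (-0.12), Jak3 (0.028) and Socs5 (0.17), but not when the slide was a block in that table (0.12, -0.092 and -0.047). Without both exchanged arrays it turned for Jak2 (-0.033), Jak3 (0.016) and Socs5 (0.10). The cause was not tested. Leaving out single arrays gave log2 fold changes of -0.067 to 0.035 for Cish, -0.080 to 0.045 for Jak3, -0.054 to 0.55 for Socs3, -0.18 to 0.045 for Socs5 and 0.0017 to 0.20 for Jak2 by the scanner output. By the table they were -0.16 to -0.082 for Cish, -0.038 to 0.087 for Jak3, 0.033 to 0.64 for Socs3, 0.087 to 0.28 for Socs5 and -0.23 to -0.033 for Jak2. Jak1, Socs1, Socs2, Socs7 and Tyk2 kept their direction under every alternative run, but not their size. Leaving out single arrays gave 0.059 to 0.17, 0.092 to 0.33, 0.20 to 0.50, 0.12 to 0.26 and -0.68 to -0.38 by the scanner output, in that order. By the table the values were 0.10 to 0.19, 0.16 to 0.36, 0.42 to 0.59, 0.0011 to 0.17 and -0.66 to -0.33. Normexp gave 0.027 for Jak1 and -0.11 for Cish, against 0.10 and -0.021, and the mean over probes gave -0.15 for Jak3 and 0.15 for Jak2, against -0.0065 and 0.072. The lowest values came without saline replicate 3 for Socs1 and without rhTM replicate 1 for Socs7.

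Replicate numbers did not pair the mice, since arrays of the same number had correlations of deviations of -0.30, 0.44 and -0.45. With the replicate number as a block, 0 members and 0 genes in all were called and 376 genes had an unadjusted p below 0.05, against 305 without it.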
